A study of Mus musculus with 10 samples.

Results

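The transcripts of 10 genes were followed in mouse liver. They comprise targets of the transcription factor p53 (*Cdkn1a*, *Ccng1*, *Btg2*, *Phlda3*, *Mdm2*, *Bax* and *Bbc3*) and regulators of apoptosis of the Bcl2 family (*Bax* and *Bbc3* again, with *Bcl2*, *Bcl2l1* and *Mcl1*). They were taken by name and function from 16647 genes listed in a table of RNA-Seq read counts. All 10 were listed and all 10 had enough counts to be tested. RNA was sequenced from the livers of 10 male mice, 5 given vehicle (control) and 5 given MI-883, with a separate animal for each library. MI-883 is a ligand of the nuclear receptors CAR and PXR, and the comparison asks what 4 weeks of its administration changed in the liver transcriptome. All animals were humanized PXR-CAR-CYP3A4/3A7 mice, aged 10 to 15 weeks at the start, and all had been kept on a high-fat diet (HFD) for 8 weeks before treatment and stayed on it. MI-883 was given by oral gavage at 5 mg/kg, 3 times per week, and control mice received the vehicle of DMSO, PEG300 and corn oil in the same way. The receptors are human in these animals while the genes described here are the mouse's own, no chow-fed group was sequenced, and whole liver was used.

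The transcription factor p53, encoded by *Trp53* in the mouse, is stabilized after DNA damage and other stress, and switches on genes that halt the cell cycle, repair DNA or start cell death. Its own target *Mdm2* encodes the ubiquitin ligase that marks p53 for degradation, which closes a feedback loop. At the mitochondrion, Bax and its relatives open the outer membrane, Bcl2, Bcl-xL (encoded by *Bcl2l1*) and Mcl1 hold them back, and BH3-only proteins such as Puma (encoded by *Bbc3*) release that block. In rodents, Car activation is known for hepatocyte growth and for protection from apoptosis.

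p53 binds a response element made of a pair of adjoining blocks. The promoters of the 10 genes in RefSeq (GRCm38.p6) were searched for the p53 response element consensus, which has 20 positions and reads the same on both strands, so that a single scan covers both. A promoter window runs from 250 bases before to 50 bases after an annotated start, and the 10 genes have 15 such windows. The best matches are shown because these genes are grouped by their control through p53. The capitals mark the 20 positions, and each line is the gene's own strand, 5′ to 3′, ending before the start of transcription.
Cdkn1a (chr17:29090888-29090978, + strand): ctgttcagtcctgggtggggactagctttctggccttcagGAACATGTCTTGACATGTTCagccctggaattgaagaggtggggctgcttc
Ccng1 (chr11:40755422-40755521, − strand): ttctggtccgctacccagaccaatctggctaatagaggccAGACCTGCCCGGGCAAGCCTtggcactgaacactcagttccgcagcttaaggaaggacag
Bax (chr7:45467050-45467148, − strand): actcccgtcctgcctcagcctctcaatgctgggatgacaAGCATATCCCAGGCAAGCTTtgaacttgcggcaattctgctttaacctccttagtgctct
Bbc3 (chr7:16309446-16309545, + strand): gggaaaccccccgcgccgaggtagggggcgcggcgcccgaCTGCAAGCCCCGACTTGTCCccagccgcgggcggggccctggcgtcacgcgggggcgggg

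The *Cdkn1a* match fills 19 of 20 positions and lies 51 to 32 bases before the upstream of its 2 annotated starts, while the window of the downstream start reached 15 positions. That of *Ccng1* also fills 19 positions and lies 195 to 176 bases before the start. Of 32851 promoter windows of all genes, 29 (0.0883%) hold a match of at least 19 positions, and these are 2 of the 15 windows here. *Bax* and *Bbc3* matched at 17 positions, which 6.29% of all windows reach. No window of *Mdm2*, *Phlda3*, *Btg2*, *Bcl2*, *Bcl2l1* or *Mcl1* reached 17 positions. The p53-responsive promoter of *Mdm2* is known to lie within the gene and outside such a window. A match of letters is a description of the sequence and not a measurement of binding.

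The libraries held between 23513665 and 36221514 counts on genes, and a gene was tested if its counts in the 10 livers added up to 60 or more, which 13219 genes did. Expression is given as CPM, which here are counts divided by the TMM-scaled library size, and errors are S.D. (n = 5). Differences are log2 fold changes of MI-883-treated over control livers as fitted by edgeR (quasi-likelihood test). P values were adjusted over all tested genes by the Benjamini-Hochberg method, and a gene was called at an adjusted P under 0.05. The treatment was seen in *Cyp2b10*, the classic Car target, which lay at 24.4–44.3 CPM in the control group and at 634–1380 CPM after MI-883. Each count below can be read against all tested genes, of which edgeR called 136 (1.03%), 101 upward and 35 downward. In bulk liver, fewer cells of a type cannot be told apart from less RNA per cell.

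None of the 10 genes was called after treatment with MI-883. edgeR called 0 of 10 at an adjusted P under 0.05, against 1.03% of all tested genes, and 0 of 10 had an unadjusted P under 0.05, against 15.6% of all tested genes. DESeq2 called 0 of 10 against 3.50% of all genes. In 0 of 10 genes were the livers of the groups apart without overlap, against 3.98% of all genes. The lowest adjusted P of the 10 in edgeR was 0.554 and the highest 0.999. In the fit, 3 genes were higher and 7 lower with MI-883, with −0.02 as the median log2 fold change, beside 0.0045 over all tested genes. When libraries were scaled by total counts, the small differences of *Bbc3*, *Btg2* and *Bcl2* turned from lower to higher.

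How closely the data bound a change differed between the genes. The 95% confidence interval of the log2 fold change lay within 0.5 of 0 on either side for 7 genes (*Mdm2*, *Ccng1*, *Bax*, *Bbc3*, *Btg2*, *Bcl2l1* and *Mcl1*). It was wider for *Cdkn1a* (−0.63 to 1.10), *Phlda3* (−0.60 to 0.62) and *Bcl2* (−0.64 to 0.64). Rises and falls up to these bounds were not excluded.

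**Figure D1:**
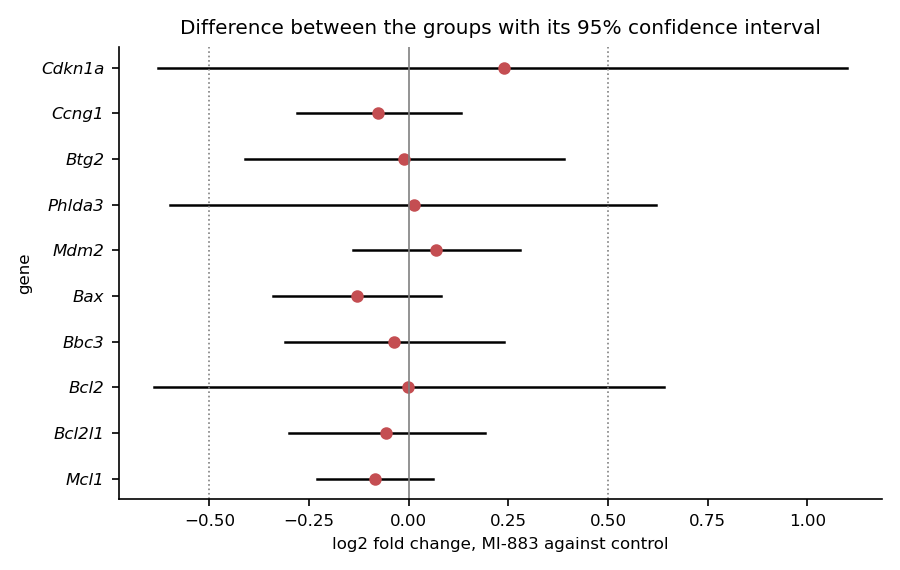
Log2 fold change (MI-883 against control, horizontal axis) of each of the 10 genes (vertical axis), with the edgeR estimate as a point and its 95% confidence interval as a line. Every interval crosses 0, dotted lines mark 0.5 on either side, and only the intervals of *Cdkn1a*, *Phlda3* and *Bcl2* pass a dotted line.

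Per length of transcript, the genes ranged widely in control livers. Compared as RPKM, *Mcl1* was the highest with 27.7 ± 1.94 RPKM (S.D., n = 5), followed by *Bax* with 19.7 ± 1.16 RPKM and *Ccng1* with 17.2 ± 2.10 RPKM. *Bcl2l1* (9.19 ± 1.32 RPKM), *Btg2* (9.16 ± 2.29 RPKM) and *Mdm2* (6.48 ± 0.648 RPKM) lay in the middle. *Bbc3* (4.85 ± 0.635 RPKM), *Cdkn1a* (2.81 ± 1.54 RPKM) and *Phlda3* (2.20 ± 0.804 RPKM) were lower, and *Bcl2* was the lowest with 0.166 ± 0.0639 RPKM. Most neighbours in this order overlapped between livers. *Mcl1* stood above *Bax* in every control liver (25.2–30.5 against 18.9–21.7 RPKM), and *Bcl2* (0.0814–0.259 RPKM) stood below *Phlda3* (1.41–3.40 RPKM). *Bax* and *Ccng1*, *Bcl2l1* and *Btg2*, *Btg2* and *Mdm2*, *Bbc3* and *Cdkn1a*, and *Cdkn1a* and *Phlda3* overlapped with each other. *Ccng1* (14.7–20.2 RPKM) stayed above *Bcl2l1* (7.62–11.2 RPKM), and *Mdm2* (5.87–7.49 RPKM) above *Bbc3* (4.19–5.51 RPKM). Among the 3 inhibitors of apoptosis compared here, *Mcl1* was the highest and *Bcl2* the lowest, with *Bcl2l1* between them. MI-883-treated livers averaged 26.1 ± 1.28 RPKM for *Mcl1* and 0.167 ± 0.0543 RPKM for *Bcl2*.

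*Cdkn1a* (Entrez gene 12575, chr17:29090979-29100722, + strand) encodes p21, the inhibitor of cyclin-dependent kinases that carries out p53-dependent cell cycle arrest. It was expressed at 17.5, 14.1, 6.13, 5.44 and 6.71 CPM in control livers 1 to 5. In MI-883-treated livers 1 to 5 it was at 15.1, 15, 18.2, 5.00 and 5.67 CPM. Each group thus held livers of high and of low *Cdkn1a*, with 2 control and 3 treated livers at or above 14.1 CPM and all others at or below 6.71 CPM. The group means were 9.97 ± 5.46 and 11.8 ± 6.06 CPM, a log2 fold change of 0.24 (s.e. 0.402, 95% confidence interval −0.63 to 1.10, edgeR adjusted P = 0.808). An exact two-sided permutation test of the mean log2 CPM gave P = 0.817. On the linear scale this interval runs from 0.645-fold to 2.15-fold. Leaving out single livers moved the log2 fold change of *Cdkn1a* between 0.02 (without MI-883-treated liver 3) and 0.54 (without control liver 1), and it was not called in any of the 10 fits.

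The spread of *Cdkn1a* within the groups was unusually large. Its S.D. of log2 CPM within groups was 0.821, which exceeded that of 99.1% of the tested genes with a mean of at least 1 CPM. The livers with high *Cdkn1a* had library totals of 34237620 and 31734138 counts in the control group and 28349963, 23513665 and 24581671 counts in the treated group. The livers with low *Cdkn1a* had 25193092, 36221514 and 24014461 counts in the control group and 24060990 and 27262010 counts in the treated group. The part of depth in the split was not tested. The raw counts of *Cdkn1a* lay between 115 and 625 per library. Of its transcript, 5.33% of 100-base stretches also occur in other annotated transcripts, mostly on the opposite strand at the same locus, and the strand setting of the authors' counting is not given in the sources used here. With a surrogate variable in the fit, the log2 fold change of *Cdkn1a* turned to −0.07.

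**Figure D2:**
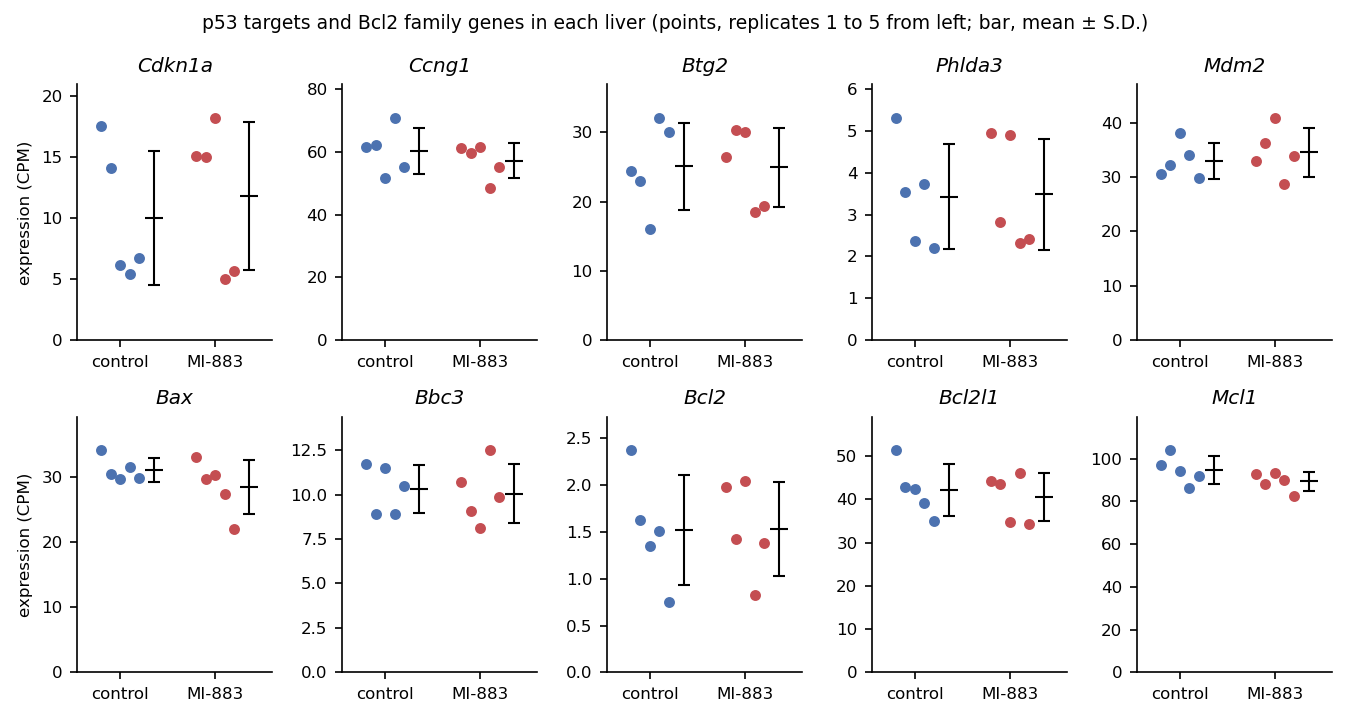
CPM (vertical axis, from 0) of the 10 genes in control and MI-883-treated livers. Points are single livers, replicates 1 to 5 from left to right, and the bar beside each group is its mean ± S.D.; *Cdkn1a* splits into livers at or above 14.1 CPM and livers at or below 6.71 CPM in both groups.

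*Ccng1* (Entrez gene 12450, chr11:40748552-40755309, − strand) encodes cyclin G1, a p53 target that takes part in the control of Mdm2. Control livers 1 to 5 had 61.6, 62.2, 51.5, 70.8 and 55.3 CPM, and MI-883-treated livers had 61.2, 59.6, 61.6, 48.5 and 55 CPM. The groups overlapped over most of their range. The 5 livers with high *Cdkn1a* lay at 59.6–62.2 CPM of *Ccng1*. Of the other 5, control liver 4 lay above them (70.8 CPM) and the rest lay below them (48.5–55.3 CPM). The means were 60.3 ± 7.39 and 57.2 ± 5.50 CPM, and the log2 fold change of −0.08 (s.e. 0.0939, 95% confidence interval −0.28 to 0.13) had an adjusted P of 0.724 in edgeR. The within-group S.D. of *Ccng1* (0.161, log2 CPM) was larger than that of 48.0% of genes.

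*Btg2* (Entrez gene 12227, chr1:134074865-134079155, − strand) encodes an antiproliferative protein that is induced by p53 and by growth signals. Its expression was 24.4, 23.0, 16.1, 32.1 and 30.0 CPM in control livers 1 to 5 and 26.5, 30.4, 30.0, 18.5 and 19.4 CPM in MI-883-treated livers 1 to 5. The groups overlapped almost entirely. In the treated group, livers 4 and 5 were low for *Btg2* as for *Cdkn1a*, whereas in the control group livers 4 and 5 had the highest *Btg2* and low *Cdkn1a*. The means of 25.1 ± 6.29 and 25 ± 5.69 CPM gave a log2 fold change of −0.01 (s.e. 0.185, 95% confidence interval −0.41 to 0.39, edgeR adjusted P = 0.986).

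*Phlda3* (Entrez gene 27280, chr1:135766085-135769134, + strand) encodes a p53-induced repressor of Akt signalling. Control livers 1 to 5 had 5.31, 3.53, 2.37, 3.74 and 2.19 CPM. MI-883-treated livers 1 to 5 had 4.96, 2.83, 4.89, 2.31 and 2.41 CPM. The highest values were those of control liver 1 and MI-883-treated livers 1 and 3, which also had high *Cdkn1a*, and the groups overlapped. The log2 fold change was 0.01 (s.e. 0.283, 95% confidence interval −0.60 to 0.62, edgeR adjusted P = 0.990) between means of 3.43 ± 1.25 and 3.48 ± 1.33 CPM. It rested on 50 to 190 counts per library, and leaving out single livers moved it from −0.15 (without MI-883-treated liver 1) to 0.23 (without control liver 1).

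*Mdm2* (Entrez gene 17246, chr10:117688875-117710758, − strand), which encodes the ubiquitin ligase of the p53 feedback loop, was at 30.6, 32.2, 38.1, 34.0 and 29.8 CPM in control livers 1 to 5. In MI-883-treated livers 1 to 5 it was at 32.9, 36.3, 40.9, 28.8 and 33.8 CPM. Both the highest and the lowest value came from treated livers, and the other 8 lay between them. The means were 32.9 ± 3.29 and 34.5 ± 4.47 CPM, with a log2 fold change of 0.07 (s.e. 0.0963, edgeR adjusted P = 0.765). The 95% confidence interval runs from −0.14 to 0.28, or 0.908-fold to 1.21-fold.

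*Bax* (Entrez gene 12028, chr7:45461695-45466903, − strand) encodes the effector that permeabilizes the mitochondrial outer membrane. Of its transcript, 5.33% of 100-base stretches also occur in an annotated gene that overlaps it on the same strand, so that its level is uncertain to that extent. It had 34.1, 30.4, 29.7, 31.5 and 29.8 CPM in control livers 1 to 5 and 33.0, 29.7, 30.3, 27.4 and 22.0 CPM in MI-883-treated livers 1 to 5. The treated livers 4 and 5 lay below every control liver and the others overlapped. The means were 31.1 ± 1.84 and 28.5 ± 4.15 CPM. The log2 fold change of −0.13 (s.e. 0.0963, 95% confidence interval −0.34 to 0.08) had an adjusted P of 0.554 in edgeR, the lowest of the 10 genes, and the exact permutation test gave P = 0.214.

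*Bbc3* (Entrez gene 170770, chr7:16308398-16318334, + strand) encodes Puma, the BH3-only protein through which p53 starts mitochondrial apoptosis. Control livers had 11.7, 8.90, 11.5, 8.92 and 10.5 CPM, and treated livers had 10.7, 9.07, 8.14, 12.5 and 9.86 CPM. The highest and the lowest value were both from treated livers. The 5 livers with high *Cdkn1a* had 8.14–11.7 CPM of *Bbc3* and the other 5 had 8.92–12.5 CPM. The means of 10.3 ± 1.35 and 10.1 ± 1.66 CPM gave a log2 fold change of −0.04 (s.e. 0.126, 95% confidence interval −0.31 to 0.24, edgeR adjusted P = 0.917).

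*Mcl1* (Entrez gene 17210, chr3:95656944-95663179, + strand) encodes a short-lived inhibitor of apoptosis on which hepatocytes are known to depend. It was at 96.9, 104, 94.1, 86.3 and 91.8 CPM in control livers 1 to 5, and at 92.9, 88.1, 93.1, 90.2 and 82.4 CPM in treated livers 1 to 5. It was the steadiest of the 10 genes, with a within-group S.D. of 0.0875 (log2 CPM), and a smaller spread was found in only 8.84% of genes. The means were 94.7 ± 6.65 and 89.3 ± 4.38 CPM and the log2 fold change was −0.08 (s.e. 0.0664, 95% confidence interval −0.23 to 0.06, edgeR adjusted P = 0.574). The exact permutation test gave P = 0.198, the smallest of the 10 genes, while the smallest P that 5 livers against 5 allow is 0.00794.

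*Bcl2l1* (Entrez gene 12048, chr2:152758732-152833803, − strand), which encodes Bcl-xL, had 51.4, 42.8, 42.5, 39.1 and 35 CPM in control livers 1 to 5. Treated livers 1 to 5 had 44.2, 43.5, 34.8, 46.1 and 34.4 CPM. The groups overlapped, with control liver 1 above all others. The log2 fold change was −0.06 (s.e. 0.113, 95% confidence interval −0.30 to 0.19, edgeR adjusted P = 0.843) between means of 42.1 ± 6.06 and 40.6 ± 5.57 CPM.

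*Bcl2* (Entrez gene 12043, chr1:106538176-106714290, − strand), the founding inhibitor of the family, was the scarcest of the 10 transcripts, with 17 to 85 counts per library. Control livers 1 to 5 had 2.37, 1.62, 1.35, 1.51 and 0.746 CPM. Treated livers 1 to 5 had 1.98, 1.42, 2.04, 0.827 and 1.38 CPM. The groups overlapped, and the 3 highest livers were the same as for *Phlda3*. The means of 1.52 ± 0.585 and 1.53 ± 0.497 CPM gave a log2 fold change close to 0 (95% confidence interval −0.64 to 0.64, edgeR adjusted P = 0.999). Of its transcript, 4.41% of 100-base stretches lie in an annotated gene on the opposite strand, so that reads of both could be mixed if strand was not used in counting. Without control liver 1 its log2 fold change was 0.22, and without control liver 5 it was −0.16.

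Which other genes followed the liver-to-liver pattern was asked by the root mean square difference of log2 CPM over the 10 livers, each gene centred on its own mean, among 11603 genes. These members were chosen after their values were seen. The genes closest to *Cdkn1a* were *Rragd* (0.311), *Matk* (0.335) and *Myo5a* (0.336), where *Cdkn1a* itself deviated by 0.743 from its mean. *Rragd*, which encodes a Rag GTPase of mTORC1 signalling, was at 3.58, 3.50, 1.63, 2.06 and 1.36 CPM in control and 4.07, 2.61, 3.70, 1.44 and 1.56 CPM in treated livers. Its 5 highest livers were the 5 with high *Cdkn1a*. The genes closest to *Phlda3* included *Cd53* (0.157) and *Car2* (0.158), and those closest to *Bcl2* included *Cxcl14* (0.152) and *Ifi27l2a* (0.162).

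*Cd53* encodes a tetraspanin of leukocytes. It was at 10.6, 9.06, 6.99, 8.31 and 5.48 CPM in control livers and 14.1, 7.70, 13.1, 5.66 and 5.99 CPM in treated livers. *Ptprc* (CD45), the defining leukocyte marker, was at 13.0, 12.3, 9.15, 9.53 and 6.80 CPM in control livers and 13.8, 8.50, 12.8, 8.75 and 8.55 CPM in treated livers. The 3 livers highest in *Phlda3* and *Bcl2* were also the 3 highest in *Cd53* and *Ptprc*. The summed level of 8 leukocyte markers was 107–129 CPM in control and 83.7–153 CPM in treated livers, 4 markers were higher and 4 lower with MI-883, and 0 of 8 were called or at 0 in any liver. It was 129, 153 and 110 CPM in the 3 livers named, so that the sum did not single them out. In every liver most of this sum was *Clec4f*, at 62.1–96.4 CPM in control and 51.8–92.1 CPM in treated livers. The sum therefore says little about the other markers. Within the list, *Cd68* was highest in the 3 livers named, as *Ptprc* was, and the remaining markers were not. The same 3 livers also had the highest summed level of the 10 proliferation genes, at 110, 111 and 129 CPM against 59.0–88.3 CPM in the others. *Ccnd1* and *Pcna* made up most of that sum, and *Ccnd1* was itself highest in these 3 livers. The other proliferation genes except *Cdk1* were lower in control liver 1 than in MI-883-treated liver 5. Examples are *Mki67* (2.21 against 3.55 CPM) and *Top2a* (2.29 against 3.44 CPM), while *Cdk1* was at 2.43 against 2.38 CPM. MI-883-treated livers 1 and 3 had the highest sums of stellate cell and fibroblast markers (385 and 346 CPM, the others 182–315 CPM) and of bile duct markers (11.6 and 9.62 CPM, the others 4.45–8.40 CPM). The part of these cells and of proliferation in the levels of *Phlda3* and *Bcl2* was not tested. Between the groups, markers of hepatocytes were at 71500–82700 CPM in control and 60200–72400 CPM in treated livers (5 of 5 lower, 0 called by edgeR, 2 without overlap), and DESeq2 called *Apoa1*. Bile duct markers were at 4.45–8.16 and 5.53–11.6 CPM (4 of 4 higher), stellate cell and fibroblast markers at 182–315 and 213–385 CPM (4 of 5 higher) and endothelial markers at 70.4–90.1 and 75.6–101 CPM (4 of 4 higher), with 0 called by either tool.

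**Figure D3:**
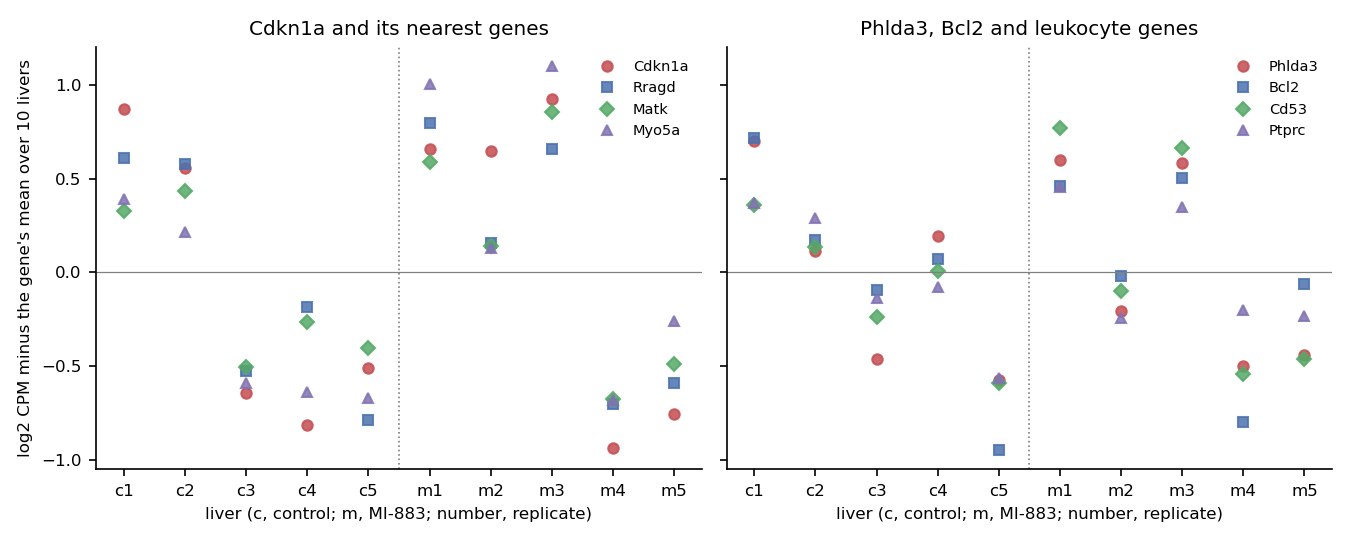
Log2 CPM of each gene minus its mean over the 10 livers (vertical axis) in each liver (horizontal axis; c, control; m, MI-883; the number is the replicate), on the left for *Cdkn1a* and its 3 closest genes and on the right for *Phlda3*, *Bcl2* and the leukocyte genes *Cd53* and *Ptprc*. *Cdkn1a* is above its mean in livers c1, c2, m1, m2 and m3, and *Phlda3* and *Bcl2* are highest in c1, m1 and m3.

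The 10 genes were set beside further genes of the same pathways. *Trp53* had 20.5 ± 2.47 CPM in control and 22.5 ± 1.77 CPM in treated livers (log2 fold change 0.13, edgeR adjusted P = 0.495). Its inhibitor *Mdm4* and the phosphatase gene *Ppm1d* had log2 fold changes of −0.03 and −0.04 (edgeR adjusted P = 0.966 and 0.904). Of 17 tested genes for control of p53, 5 were higher and 12 lower, 0 were called by edgeR, and their median was −0.04 (log2 fold change). The lowest P values among them were those of the checkpoint kinase genes *Chek1* (log2 fold change 1.08, edgeR adjusted P = 0.139), which DESeq2 called, and *Atr* (0.26, edgeR adjusted P = 0.161).

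Of 44 other p53 targets tested, 25 were higher and 19 lower with a median log2 fold change of 0.05, and edgeR called 2, both higher. *Ephx1*, which encodes microsomal epoxide hydrolase and is also a known Car target, rose from 524 ± 86.0 to 800 ± 44.5 CPM (log2 fold change 0.61, s.e. 0.108, edgeR adjusted P = 0.0182). Every treated liver (734–849 CPM) lay above every control liver (416–631 CPM). *Gtse1*, which encodes a G2 and S phase protein that restrains p53, rose from 1.18 ± 0.404 to 2.57 ± 0.426 CPM (log2 fold change 1.12, s.e. 0.234, edgeR adjusted P = 0.041). *Gtse1* was also without overlap, at 0.746–1.68 CPM in control and 1.95–3.00 CPM in treated livers. The call of *Ephx1* was lost without control liver 3 or 4 or MI-883-treated liver 5 (edgeR adjusted P = 0.0513, 0.0527 and 0.0571). That of *Gtse1* was lost without control liver 2, 4 or 5 (edgeR adjusted P = 0.0896, 0.0815 and 0.0906) or treated liver 2, 3, 4 or 5 (0.0771, 0.105, 0.0637 and 0.118). The p53 targets *Ckap2* and *Ei24* were called by DESeq2 and not by edgeR, with log2 fold changes of 1.73 and −0.22 (edgeR adjusted P = 0.163 and 0.145). *Ckap2* was scarce, with 1 to 55 counts per library, at 0.0439–0.922 CPM in control and 0.696–2.04 CPM in treated livers. In control livers 3 and 5 it lay below the CPM of 3 counts (0.123 and 0.132). Without control liver 1, edgeR also called *Ckap2* (log2 fold change 2.51, adjusted P = 0.033).

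*Gadd45a*, *Gadd45b* and *Gadd45g* encode small stress proteins, of which *Gadd45a* is a p53 target. *Gadd45a* had a log2 fold change of −0.05 (edgeR adjusted P = 0.951). *Gadd45b* rose from 3.32 ± 1.19 to 19.4 ± 7.93 CPM (log2 fold change 2.54, edgeR adjusted P = 0.000759), from 2.63, 5.25, 2.21, 2.95 and 3.55 CPM in control livers to 14.4, 30.0, 11.2, 25.3 and 16.1 CPM in treated livers. *Gadd45g* fell from 26.1 ± 8.64 to 10.7 ± 3.39 CPM (log2 fold change −1.30, edgeR adjusted P = 0.0198), a call that was lost without treated liver 3 (0.0557) or 5 (0.0627). The members *Cdkn1a*, *Mdm2* and *Bax* were not called in these livers, though the interval of *Cdkn1a* reaches 2.15-fold. The part of p53 in the change of *Gadd45b* was not tested.

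Of 18 other Bcl2 family genes tested, 9 were higher and 9 lower with a median log2 fold change of 0.0081, and edgeR and DESeq2 called 0, while 4 had an unadjusted P under 0.05. The effector gene *Bak1*, the partner of *Bax*, had a log2 fold change of 0.08 (edgeR adjusted P = 0.588). The BH3-only genes *Bid* (−0.13), *Pmaip1* (−0.23) and *Bcl2l11* (0.29) had edgeR adjusted P values of 0.413, 0.694 and 0.261. The lowest P was that of *Hrk*, which encodes a BH3-only protein, with a log2 fold change of 1.42 (edgeR adjusted P = 0.142) at 0.156–0.348 CPM in control and 0.308–1.17 CPM in treated livers, or 5 to 27 counts per library.

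Downstream of the Bcl2 family, 25 genes of caspases, their activators, inhibitors and death receptors were tested, and 12 were higher and 13 lower with a median log2 fold change of −0.05. edgeR called *Casp6*, which encodes an executioner caspase, as lower. It was at 29.1, 33.6, 27.7, 35.2 and 33.0 CPM in control and 24.4, 22.3, 23.3, 21.5 and 25.8 CPM in treated livers. The groups did not overlap, and the log2 fold change was −0.44 (s.e. 0.0805, edgeR adjusted P = 0.0214). The call was lost without control liver 2, 4 or 5 (edgeR adjusted P = 0.069, 0.0596 and 0.0671) or treated liver 2 or 3 (0.0644 and 0.0518), and under scaling by total counts (0.0705). *Birc5*, which encodes survivin, and *Ripk1* were called by DESeq2 and not by edgeR, with log2 fold changes of 0.81 and −0.21 (edgeR adjusted P = 0.0581 and 0.0832). In 4 of the 25 genes, among them *Casp6*, *Birc5* and *Ripk1*, the groups did not overlap, against 3.98% of all tested genes. edgeR called *Birc5* without control liver 4 (adjusted P = 0.0408) and with a surrogate variable (0.049). *Apaf1*, which encodes the scaffold of the apoptosome, had a log2 fold change of 0.25 (edgeR adjusted P = 0.577).

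The proliferation genes bear on *Cdkn1a* and *Btg2*, which restrain division. All 10 of 10 proliferation genes were higher in treated livers, with a median log2 fold change of 0.90, yet edgeR called 0 of them, 8 had an unadjusted P under 0.05 and DESeq2 called 4 (*Top2a*, *Ccnb1*, *Ccna2* and *Mcm2*). Their summed level overlapped between the groups, at 110, 71.7, 59.0, 74.5 and 61.5 CPM in control livers 1 to 5 and 111, 69.7, 129, 67.9 and 88.3 CPM in treated livers 1 to 5. Most of the sum was *Pcna* and *Ccnd1*, whose log2 fold changes of 0.05 and 0.23 were the smallest of the list. The others ranged from 0.59 (*Ccne1*) to 1.62 (*Ccnb1*), and each of the 10 genes overlapped between the groups. The part of proliferation in the higher levels of *Gtse1*, *Ckap2*, *Chek1* and *Birc5*, named above, was not tested. *Mki67* was at 1.84 ± 0.446 CPM in control and 3.31 ± 1.45 CPM in treated livers (log2 fold change 0.84, edgeR adjusted P = 0.171). *Cdkn1b*, the closest relative of *Cdkn1a* in the list of 7 Cdk inhibitors, had a log2 fold change of −0.01 (edgeR adjusted P = 0.983), and 0 of the 7 were called or had an unadjusted P under 0.05. The immediate early genes, which mark acute growth signals and to which *Btg2* responds, had 6 higher and 7 lower of 13. Among them *Ier2* was called lower (log2 fold change −0.50, edgeR adjusted P = 0.0348), a call lost in 7 of the 10 fits without a liver, while *Fos* (0.02) and *Jun* (−0.29) were not called.

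**Figure D4:**
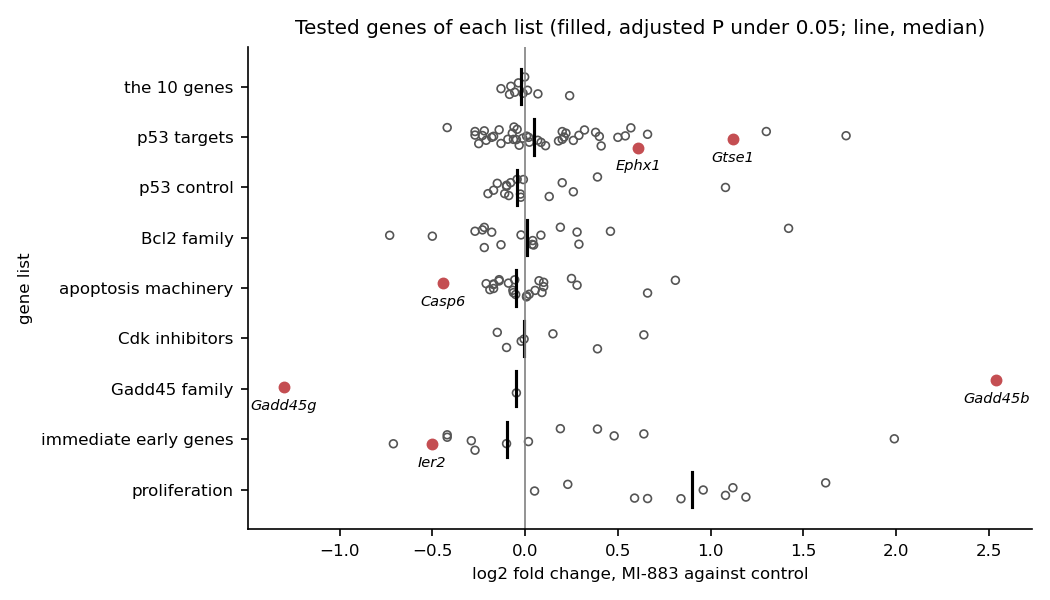
Log2 fold change (horizontal axis, MI-883 against control) of every tested gene in each list (vertical axis), with filled and named points for genes called by edgeR and a vertical line at the median of the list. The 10 genes lie between −0.13 and 0.24 with a median of −0.02, 0 of them is filled, and the proliferation genes have a median of 0.90.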

How the data were processed

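RNA was isolated from the livers of 5 control and 5 MI-883-treated mice, and directional libraries were sequenced. The authors processed reads with fastp 0.23.0, aligned them to the mouse genome (mm10) with STAR and counted them with featureCounts, and deposited raw counts per Entrez gene without normalization. Other versions, the annotation and the strand setting are not given in the sources used here. Symbols and positions came from RefSeq (GRCm38), which matched 16644 of 16647 genes.

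The 13219 genes whose counts added up to 60 or more were tested with edgeR 4.0.16 (R 4.3.3; quasi-likelihood test, TMM scaling, no covariates), and P values were adjusted by the Benjamini-Hochberg method (threshold 0.05). The study used DESeq2, which is an alternative here (1.42.0). Mean log2 CPM of single genes was also compared by exact permutation of the livers, two-sided (pseudocount 0.05; SciPy 1.17.1). Depth lay between 23513665 and 36221514 counts per liver, and 3 counts correspond to 0.0838–0.133 CPM, for counting error only. RPKM used the summed length of the exons of a gene in the GENCODE annotation.

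The members and gene lists were chosen with earlier results of these data known. Named by rule were the members, every called gene of a list and the 2 other genes of lowest P in the lists of p53 targets, p53 control, Bcl2 family and apoptosis machinery, a set named regardless of values, and the 3 genes nearest in pattern to each of the 3 members with the lowest P. Genes named because DESeq2 called them, the genes near *Cdkn1a*, *Phlda3* and *Bcl2*, *Cd53* and *Ptprc* were chosen after their values were seen. Some genes that fall under these rules are not reported here. Alternatives were DESeq2, other scalings, other filters on low counts, a replicate block, a surrogate variable (sva 3.50.0) and leaving out each liver. The fit was tested on simulated data.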

Additional observations from a re-analysis of the deposited data

Results flagged for a closer look

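Dixon's criterion for a single liver far from the other 4 of its group was applied to 82 groups of values, and 0 exceeded the critical value of 0.71, where chance alone gives about 4.1. *Cdkn1a* was not marked by it, since its high and low livers came in sets of 2 or 3 in each group.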

How the results depend on the processing

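The members were called in 0 of 18 alternative fits, and their lowest adjusted P over these fits was 0.34. Of 178 member values, 153 kept their direction and 25 turned, all in genes whose change was not called. The cause of the turns was not tested. edgeR called 136 genes, against 463 by DESeq2, 89 with the replicate block, 254 with a surrogate variable and 62 to 208 without single livers. Of other p53 targets, edgeR called 2, DESeq2 called 4, the minimum of 60 counts in every liver left 1, the replicate block 0 and leaving out single livers 0 to 3. Of apoptosis machinery, edgeR called 1 gene, against 3 by DESeq2, 0 with total counts, 0 with the replicate block, 2 with a surrogate variable and 0 to 1 without single livers. The surrogate variable called 1 Bcl2 family gene (*Hrk*, log2 fold change 1.63, edgeR adjusted P = 0.029), and DESeq2 called 1 gene for control of p53, where edgeR called 0 of either. The log2 fold change turned with a surrogate variable for *Cdkn1a* (−0.072), *Phlda3* (−0.27), *Mdm4* (0.0037) and *Gadd45a* (0.00069), with total counts for *Bbc3* (0.00029), *Btg2* (0.042), *Bcl2* (0.043), *Mdm4* (0.027) and *Cdkn1b* (0.037), with 60 counts in every liver for *Btg2* (0.0091) and *Cdkn1b* (0.011), with DESeq2 for *Bcl2* (0.00031), and with the replicate block for *Bcl2* (0.016) and *Gadd45a* (0.0087). *Bcl2* and *Phlda3* were too low for the fit with 60 counts in every liver. Without single livers the values ranged from −0.12 to 0.032 for *Bbc3*, −0.15 to 0.23 for *Phlda3*, −0.13 to 0.10 for *Btg2*, −0.16 to 0.22 for *Bcl2*, −0.12 to 0.026 for *Bcl2l1*, −0.13 to 0.14 for *Mdm4*, −0.10 to 0.036 for *Ppm1d*, −0.21 to 0.10 for *Gadd45a*, −0.048 to 0.031 for *Cdkn1b* and −0.23 to 0.48 for *Fos*. *Ier2* was lost without control liver 3, 4 or 5 or treated liver 1, 2, 3 or 5 (edgeR adjusted P = 0.0659 to 0.106), and with the replicate block (0.0821), which also ended the calls of *Ephx1* (0.0545), *Gtse1* (0.0786) and *Casp6* (0.0602). Deviations from the group means correlated at −0.121 to 0.36 between livers of the same number, with 0.36 for number 1. Of the control livers, 0 of 5 correlated best with the treated liver of its own number. The sample titles do not say whether livers of the same number belong together, so pairing was not excluded.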

Other observations

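Among the relatives of *Btg2*, 0 of 4 genes were called. *Btg3* was at 2.31 ± 0.737 CPM in control and 3.49 ± 0.480 CPM in treated livers (log2 fold change 0.58, edgeR adjusted P = 0.199), *Tob1* at 159 ± 25.6 and 131 ± 14.9 CPM (log2 fold change −0.27, edgeR adjusted P = 0.257), *Tob2* at 61.5 ± 11.3 and 52.1 ± 8.16 CPM, and *Btg1* at 50.1 ± 3.47 and 53.6 ± 7.71 CPM.

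The genes nearest in pattern over the 10 livers to the 3 members of lowest P differed little from them on the log2 CPM scale. They were *Vps45* (0.0536), *Dguok* and *Rhod* for *Bax*, *Ctsa* (0.0454), *Gucd1* and *Tnfrsf1a* for *Mcl1*, and *Sh3bgrl* (0.0421), *Mbnl1* and *Fcho2* for *Ccng1*. *Bax* itself deviated by 0.165 and *Mcl1* by 0.0885 from its mean.

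In the Bcl2 family, *Bcl2l14* was at 1.42 ± 0.444 CPM in control and 0.852 ± 0.218 CPM in treated livers (log2 fold change −0.73, edgeR adjusted P = 0.207). *Egr1*, an immediate early gene, was at 5.36 ± 1.12 and 8.42 ± 2.05 CPM (log2 fold change 0.64, edgeR adjusted P = 0.129), and DESeq2 called it (adjusted P = 0.0288).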
